A study of Mus musculus with 2 samples.

Results

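Kinesins and centromere proteins were examined in mouse bone marrow cells profiled on 2 Affymetrix arrays. The genes were taken by name: every probe set annotated to exactly 1 symbol that begins with Kif and a number, or that consists of Cenp and a single letter. This gave 137 of 45037 probe sets and 57 of 18193 genes. The 37 kinesin genes were divided by known function into 11 mitotic, 13 transport and 13 other kinesins, and the remaining 20 genes encode centromere proteins.

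The cells came from wild-type C57BL6J mice and are labelled LSK Flt3- cells, a stem and progenitor fraction that lacks lineage markers and Flt3 and carries Sca-1 and high c-Kit. One array was hybridised with RNA of cells transduced with GFP, the control, and 1 array with RNA of cells transduced with Satb1, the gene of a chromatin organiser of the nucleus with a preference for AT-rich DNA. The labels speak of transduction and the design text of transfection. Neither the age and number of the mice nor the share of cells that carried the introduced gene is stated in these sources. Because each group is 1 array, no difference below has a replicate check, and each is a difference between these 2 arrays.

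Kinesins are motor proteins that use ATP to act on microtubules. The mitotic kinesins build the spindle, move and hold chromosomes and divide the cell, and the transport kinesins carry vesicles, organelles and complexes towards microtubule plus ends. Centromere proteins mark the site on each chromosome where the kinetochore forms, the structure that attaches it to the spindle. RNA of most mitotic kinesins and of many centromere proteins is made mainly in dividing cells, and several transport kinesins are known chiefly from neurons or ciliated cells.

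RNA of the mitotic machinery was present on both arrays, for most of its genes at nearly equal levels. An intensity floor of 61.7, the median of all deposited values, was used to separate readable from very low intensities. All 20 centromere genes and 9 of 11 mitotic kinesins lay above this floor on both arrays, as did 10 of 13 transport kinesins and 5 of 13 other kinesins. Of all 18193 genes, 60.7% lay above it on at least 1 array. Of the 44 members above the floor, 0 differed by 2-fold or more, against 1.13% of the 11048 genes above the floor. At 1.5-fold or more, 3 of the 44 members (6.82%) differed, against 5.66% of all genes, and all 3 were lower on the Satb1 array. These were Kif22, Kif17 and Kif3b. Each was called by a probe set with the suffix _x_at or _s_at, a kind that can match several transcripts. For all genes, 3.91% were lower by 1.5-fold or more. The members' share is near the background share at both thresholds.

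The fraction and the introduced gene were checked before the members. Of the measured progenitor markers, all 4 lay above the floor on both arrays, Kit at 3293 on the GFP array and 3388 on the Satb1 array and Flt3, whose protein the sort excludes, at 1390 and 1334. None of the 4 neuronal, 3 ciliated cell or 2 measured B lineage markers lay above the floor on either array. All 3 megakaryocyte markers did on both arrays, Pf4 at 19179 on the GFP array and 21045 on the Satb1 array. So did 1 of 4 T lineage markers (Cd8a) and 1 of 2 measured erythroid markers (Klf1). The 4 granulocyte markers were all higher on the Satb1 array, with a summed intensity of 13060 against 4322, and their part in the differences below was not tested. In bulk RNA, fewer cells of a type and less RNA per cell cannot be told apart. The introduced gene itself did not read higher under the Satb1 label: its brightest probe set read 1116 on the GFP array and 909 on the Satb1 array. Its other probe sets above the floor on an array were also lower under that label. They read 964 and 908, 288 and 165, and 81.4 and 30.5 on the GFP and Satb1 arrays. The sources do not state the extent of the introduced sequence, and a probe set outside it would check nothing, so all directions rest on the labels.

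**Figure D1:**
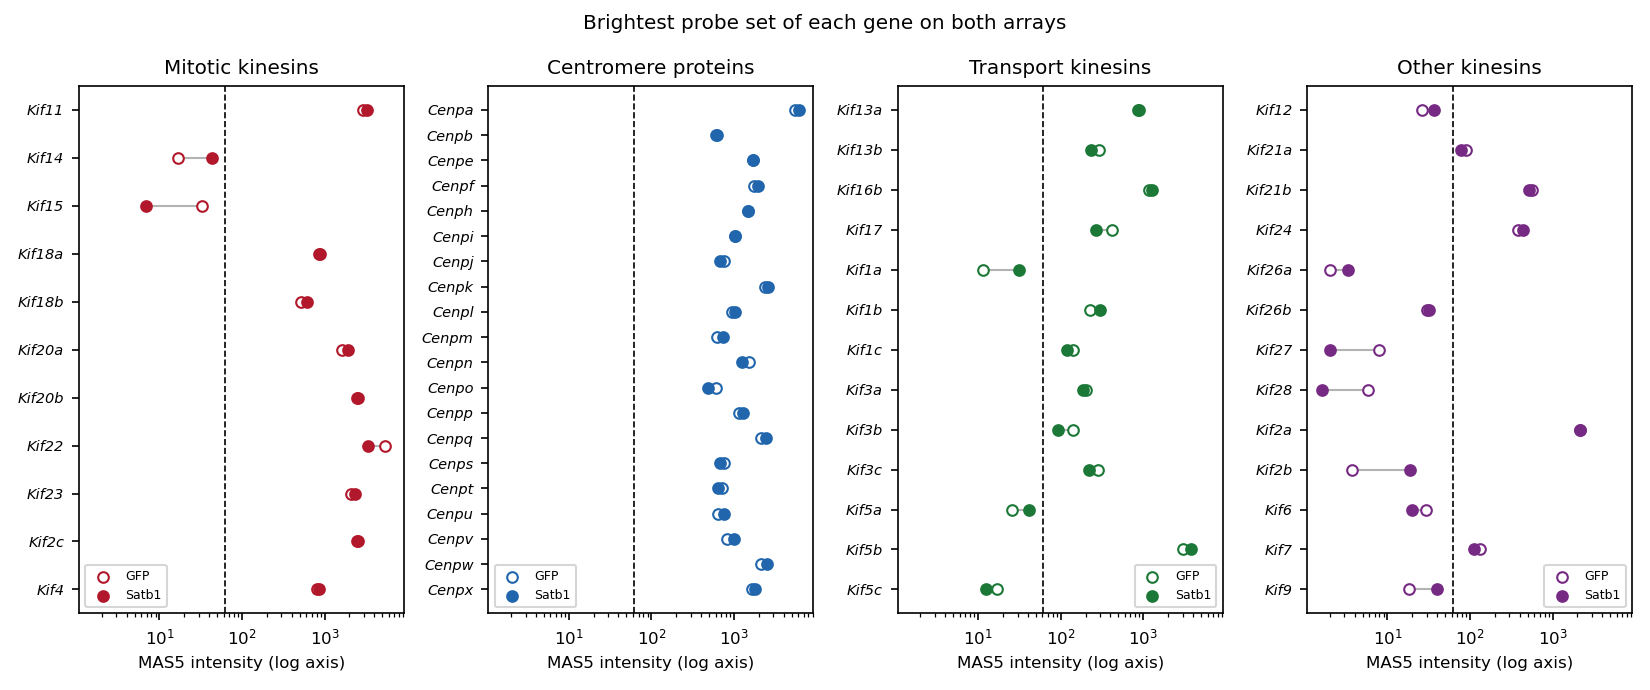
MAS5 intensity (log axis) of the brightest probe set of each of the 57 genes, in 4 classes, with an open circle for the GFP array and a filled circle for the Satb1 array (1 array each); the dashed line is the floor of 61.7. All 20 centromere genes lie to the right of the floor, and 13 kinesin genes lie to its left on both arrays.

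Of the motors that set up the spindle poles, Kif11 could be read on both arrays and Kif15 on neither. Kif11, the motor that slides antiparallel microtubules apart to separate the poles, read 2961 on the GFP array and 3289 on the Satb1 array, a log2 difference of 0.15. Log2 differences are given throughout as Satb1 minus GFP, and intensities in the order GFP, then Satb1. The other Kif11 probe sets differed by 0.17 (1480 and 1671) and by 0.00 (241 and 242), so none was lower. Kif15, a motor that helps to keep the spindle bipolar, was below the floor on both arrays at 33.0 and 6.9 by its only probe set.

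Motors that shorten or limit microtubules at chromosomes differed little. Kif2c, which depolymerises microtubules at centromeres and so frees wrong attachments, read 2457 and 2515, a log2 difference of 0.03, and its other 2 probe sets above the floor went the other way by -0.14 and -0.08. Kif18a, which damps the oscillation of aligned chromosomes, read 871 and 849, a difference of -0.04. Its relative Kif18b, which acts on astral microtubules, read 515 and 614, a difference of 0.25 from a single probe set. Of this group only Kif18b differed by more than 0.2 on the log2 scale, and for genes of mean intensity between 500 and 2000 the log2 difference varied among probe sets of 1 gene with an SD of 0.19. That SD is the only technical spread available here. It leaves out whatever a gene's probe sets have in common, so it cannot stand for the error between 2 arrays.

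The chromokinesins, motors that bind chromosome arms, gave the largest difference among the 57 genes, though by 1 probe set only. Kif4 read 821 and 846 by its single probe set, a log2 difference of 0.04. Kif22, which pushes chromosome arms away from the poles, read 5421 and 3318 by its brightest probe set (suffix _x_at), 1.63-fold lower on the Satb1 array, a difference of -0.71. The other probe sets did not show it: they read 2129 and 2098 (suffix _s_at) and 753 and 743, a difference of -0.02 for each. Affymetrix gives the suffix _x_at to probe sets with some probes that can also match other transcripts. The SD among the 3 Kif22 differences was 0.40. Over all genes the SD among probe sets of 1 gene was 0.27 at all intensities and 0.13 above 2000, and over the members it was 0.24. Not all 3 Kif22 probe sets lay above 2000.

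Of the cytokinesis motors, Kif20a and Kif23 read a little higher on the Satb1 array and Kif20b a little lower. Kif20a, which brings the chromosomal passenger complex to the central spindle, read 1616 and 1948 by its only probe set, a log2 difference of 0.27 (1.21-fold). Kif23, the motor subunit of centralspindlin, read 2107 and 2317, a difference of 0.14, and its second readable probe set differed by 0.03. Kif20b, which acts late in cytokinesis, went slightly the other way at 2576 and 2482, a difference of -0.05. Kif14, a motor of the late midbody, was below the floor on both arrays at 16.6 and 43.8 by its only probe set.

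Over the 11 mitotic kinesins the median log2 difference was 0.03, with members below the floor counted at 0. Of the 9 above the floor on both arrays, 6 were higher by any amount and 3 lower. Among all genes above the floor on both arrays 45.7% were higher by any amount, with a median of -0.02, and among genes at 500 or more on both arrays, where all 9 mitotic kinesins lie, 50.5% were higher, with a median of 0.00.

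**Figure D2:**
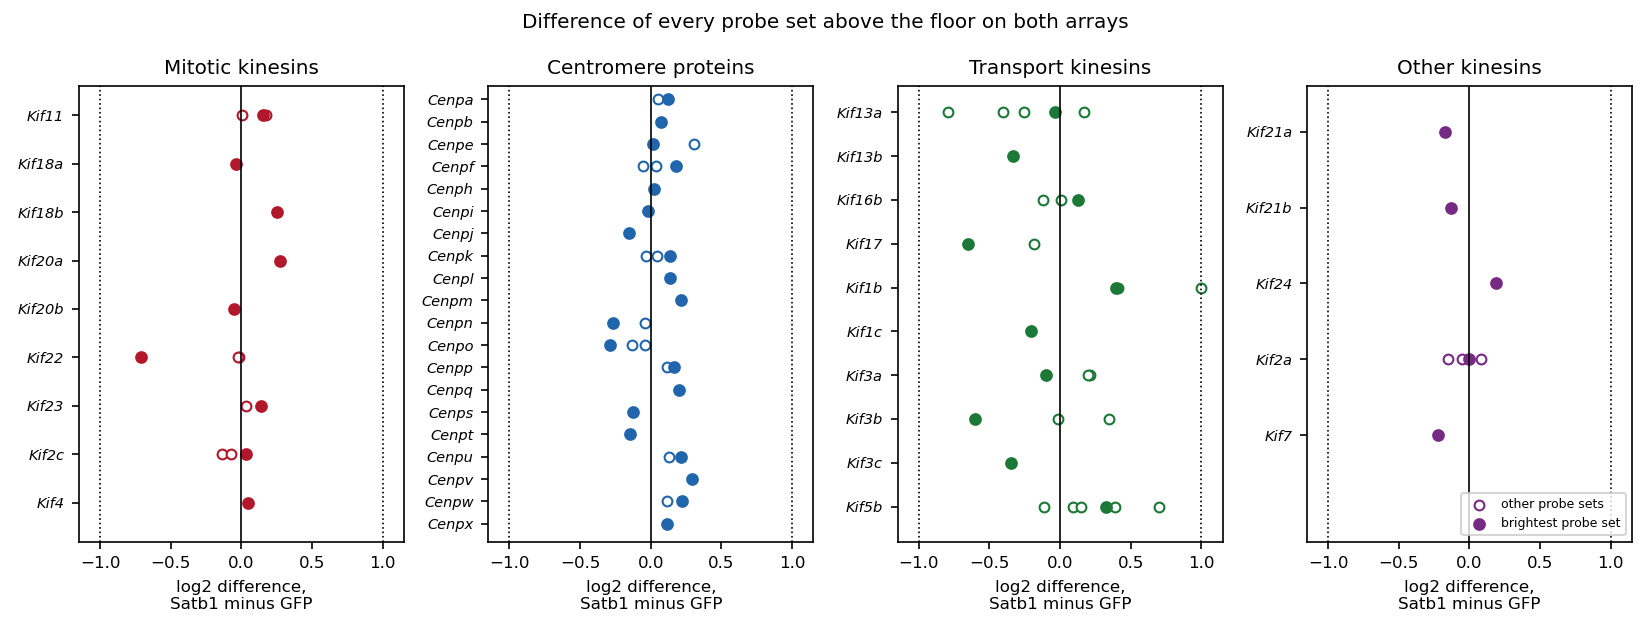
Log2 difference, Satb1 minus GFP, of the 84 member probe sets with readings over the floor on both arrays (1 array per group), with a filled circle for the brightest probe set of a gene and open circles for its others; dotted lines mark a 2-fold difference. The brightest probe set of Kif22 stands at -0.71 while its other 2 stand at -0.02, and all 3 of Kif1b lie above 0.

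Most mitotic kinesins had a promoter feature in common that their selection did not use. Many genes of late cell cycle carry a cell cycle gene homology region (CHR), a short element through which the DREAM and MuvB complexes repress and activate them, often downstream of CCAAT boxes bound by NF-Y. Promoter windows from 250 bases before to 50 bases after an annotated transcript start were taken from RefSeq (GRCm38.p6), and 51 of the 57 genes had one. A gene was counted if any of its windows held the letters. The CHR letters TTTGAA, on either strand, occurred in 9 of 10 mitotic kinesin genes with a window, in 1 of 10 transport kinesin genes, in 2 of 11 other kinesin genes and in 5 of 20 centromere genes. They occurred in 20.2% of all 27025 genes with a window, and in 19.4% of those whose GC content lay in the range of the mitotic kinesin promoters, 43.7% to 65.0%. A match began within 30 bases of the start in 7 of the 9 mitotic genes, 4 of the 5 centromere genes, 1 of the 2 other kinesin genes and 0 of the 1 transport gene with the letters, and in 18.1% of all genes with them. Kif18a was the mitotic kinesin without a match. Kif2a and Cenpe, motors with a spindle role that were classed elsewhere, had windows without a CHR match. The 9 of 10 thus depends on how the classes were drawn. The CCAAT letters, on either strand, occurred in 6 of 10 mitotic, 3 of 10 transport, 5 of 11 other and 13 of 20 centromere genes, against 41.1% of all genes. Both occurred together in 6 of 10 mitotic, 0 of 10 transport, 2 of 11 other and 5 of 20 centromere genes, against 8.97% of all genes. The letters are a description of the windows, and no binding was measured.

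**Figure D3:**
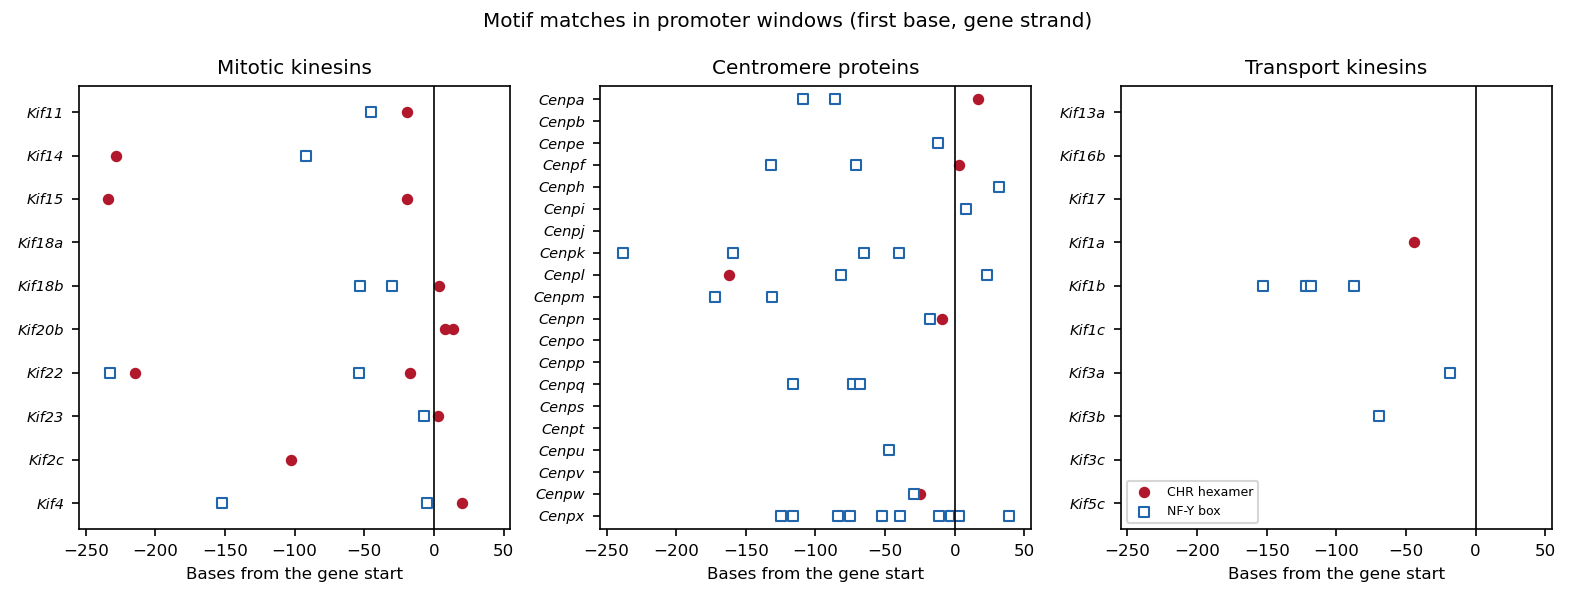
First base of each match, in bases from the annotated transcript start, for the CHR hexamer (filled circles) and the NF-Y box, the CCAAT letters (open squares), in promoter windows of mitotic kinesins, centromere proteins and transport kinesins; genes with no symbol have no match, and a gene with several annotated starts shows the matches of all its windows on 1 line. CHR matches stand on the lines of 9 of 10 mitotic kinesins and of 1 of 10 transport kinesins.

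The 120 bases before the start are shown for 2 mitotic kinesins and 2 centromere genes and, for contrast, for the 2 transport kinesins with the largest differences in either direction. The first 4 were chosen after their matches were seen. The sequences are written 5′ to 3′ on the strand of the gene, from GRCm38.p6, with every CHR or CCAAT match in capitals. The places are chr19:37376262-37376381 (+) for Kif11, chr7:127042421-127042540 (-) for Kif22, chr5:30666766-30666885 (+) for Cenpa, chr10:30200541-30200660 (-) for Cenpw, chr4:149307734-149307853 (-) for Kif1b and chr4:138262131-138262250 (+) for Kif17.
Kif11: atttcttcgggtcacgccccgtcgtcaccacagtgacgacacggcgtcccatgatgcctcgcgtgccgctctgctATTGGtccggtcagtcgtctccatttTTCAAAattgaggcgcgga
Kif22: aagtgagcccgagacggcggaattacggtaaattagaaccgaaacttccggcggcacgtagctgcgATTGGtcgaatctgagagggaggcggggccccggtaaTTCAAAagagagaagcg
Cenpa: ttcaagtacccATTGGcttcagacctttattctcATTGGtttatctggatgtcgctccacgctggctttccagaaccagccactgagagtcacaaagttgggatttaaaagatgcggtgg
Cenpw: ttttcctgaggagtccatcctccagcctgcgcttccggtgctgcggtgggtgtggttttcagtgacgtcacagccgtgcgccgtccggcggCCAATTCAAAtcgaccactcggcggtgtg
Kif1b: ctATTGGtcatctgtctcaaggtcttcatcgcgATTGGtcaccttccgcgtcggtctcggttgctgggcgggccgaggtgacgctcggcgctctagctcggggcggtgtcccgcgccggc
Kif17: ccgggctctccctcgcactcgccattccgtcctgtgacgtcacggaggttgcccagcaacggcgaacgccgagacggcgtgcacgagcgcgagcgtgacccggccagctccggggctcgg
In the bases shown, Kif11 and Kif22 both have a CCAAT match on the opposite strand (ATTGG) followed by a CHR match on the opposite strand (TTCAAA). The CHR match begins 19 and 17 bases before the start. Kif22 has a further CCAAT match and a further CHR match earlier in its window, outside the bases shown, and Kif11 does not. In Cenpw the CCAAT and CHR letters overlap by 1 base. Cenpa has 2 CCAAT matches here and a CHR match just past the start, outside the bases shown. Kif1b has 2 CCAAT matches and no CHR match, and Kif17 has neither. By the brightest probe sets the log2 difference was 0.15 for Kif11 and -0.71 for Kif22, and by the second brightest ones 0.17 and -0.02. The -0.71 was not shared by the other Kif22 probe sets. A link between promoter letters and readings was not tested.

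The 20 centromere genes were all above the floor on both arrays, and by their brightest probe sets the differences reached at most 1.22-fold. Cenpa, the histone H3 variant that defines the centromere, read 5566 and 6060 by its brightest probe set, a log2 difference of 0.12, and 1025 and 1064 by the second, a difference of 0.05. Cenpb, which binds a short sequence in satellite DNA, read 601 and 630, a difference of 0.07. Both chromatin members were thus slightly higher on the Satb1 array.

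The inner kinetochore genes went both ways, also within subcomplexes. These 14 genes encode the network that sits on the centromere throughout the cell cycle, of which 9 were higher by any amount and 5 lower. Cenpn and Cenpl form the pair that contacts the Cenpa nucleosome. Cenpn read 1532 and 1271, a log2 difference of -0.27, with a second probe set at -0.04, whereas Cenpl read 936 and 1028, a difference of 0.14.

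Among the genes of the group formed by Cenph, Cenpi, Cenpk and Cenpm, a link to the outer kinetochore, differences were small. Cenph read 1473 and 1498 (0.02) and Cenpi 1043 and 1029 (-0.02). Cenpk read 2349 and 2583 (0.14), with its other probe sets at -0.04 and 0.04. Cenpm read 631 and 733 (0.22) by a single probe set.

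In the group formed by Cenpo, Cenpp, Cenpq and Cenpu, which recruits the kinase Plk1 through Cenpu, 3 genes were higher and 1 lower. Cenpo read 601 and 492, a log2 difference of -0.29, with its other 2 readable probe sets at -0.13 and -0.04, so that all 3 were lower. Cenpp read 1160 and 1296 (0.16), Cenpq 2125 and 2436 (0.20) and Cenpu 651 and 753 (0.21), and second probe sets of Cenpp and Cenpu were also higher, by 0.11 and 0.13. The last Cenpp probe set read 92.1 and 59.1, at least 1.49-fold lower because the Satb1 reading was under the floor. Cenpo and its binding partner Cenpp therefore lay on opposite sides of 0 by the probe sets readable on both arrays, and the last Cenpp probe set did not share that direction.

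The histone-fold proteins, which bind DNA beside the Cenpa nucleosome, were likewise divided. Cenpw read 2143 and 2494 (0.22), with a second probe set at 0.12, and Cenpx 1678 and 1814 (0.11). Their direct partners were lower, Cenpt at 711 and 641 (-0.15) and Cenps at 750 and 685 (-0.13), each by a single probe set.

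Of the members outside the inner kinetochore, Cenpe and Cenpf read slightly higher on the Satb1 array by their brightest probe sets. Cenpe, itself a kinesin that carries chromosomes to the spindle equator, read 1690 and 1710 (0.02) by its brightest and 791 and 976 (0.30) by its second probe set. Cenpf, a large coiled-coil protein of the outer kinetochore, read 1745 and 1970 (0.18), with its other probe sets at 0.04 and -0.05. Cenpj, a centriole protein that controls centriole length, read 749 and 672 (-0.16). Cenpv, a centromere protein with a role in cytokinesis, read 814 and 997 (0.29), the largest difference among the centromere genes by brightest probe set.

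Over the 20 centromere genes the median log2 difference was 0.12, and 0.05 with a gene's probe sets averaged, and 14 were higher by any amount and 6 lower. Of all genes above the floor on both arrays 45.7% were higher. Among the genes at 500 or more on both arrays, which include 19 of the 20, the median was 0.12 for the centromere genes. For all 6437 genes at that level it was 0.00, and 50.5% were higher. For mean intensities from 500 to 2000 the median was 0.05 for 16 centromere genes, 10 of them higher. For all genes in that range it was -0.03, and 44.4% were higher. Over 2000 the median was 0.17 for 4 centromere genes, all higher. For all genes in that range it was 0.03, and 58.8% were higher. The count of higher centromere genes was 15 of 20 after quantile normalization and 13 of 20 with a gene's probe sets averaged. All 20 differences lay between -0.29 and 0.29 on the log2 scale.

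**Figure D4:**
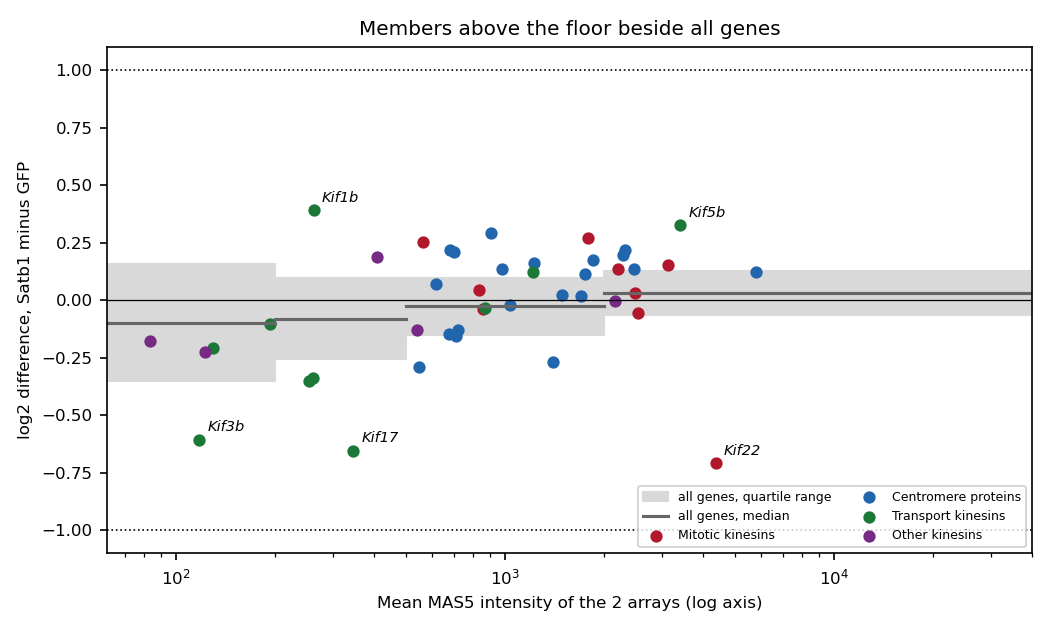
Log2 difference, Satb1 minus GFP, against mean MAS5 intensity of the 2 arrays (log axis) for the 44 members above the floor (brightest probe sets, 1 array per group); grey bands and lines give the range between the quartiles and the median of all genes in 4 intensity ranges, and dotted lines mark a 2-fold difference. Kif22, Kif17 and Kif3b lie lowest, Kif1b and Kif5b highest.

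The transport kinesins went in both directions, also among close relatives. Kif5b, the ubiquitous heavy chain of conventional kinesin, was higher on the Satb1 array by 5 of its 6 probe sets. They read 3017 and 3781 (0.33), 2955 and 3275 (0.15), 1560 and 2044 (0.39), 1444 and 1536 (0.09), 520 and 844 (0.70), and 175 and 162 (-0.11). The median of the 6 was 0.24 and their SD 0.28, so the size of the difference depended on the probe set more than its direction did. The neuronal heavy chains Kif5a and Kif5c were below the floor by all of their probe sets.

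Kif1b, a motor for mitochondria and for precursors of synaptic vesicles, was higher on the Satb1 array by each of its 3 readable probe sets. These read 226 and 297 (0.39), 122 and 161 (0.41) and 102 and 204 (0.99), and 4 others lay below the floor on both. The last of these was 1.99-fold higher, the largest difference among the 84 member probe sets readable on both arrays. Kif1c, a vesicle motor, read 139 and 121 (-0.21). The neuronal Kif1a stayed under the floor by both of its probe sets.

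The motor subunits of heterotrimeric kinesin, which builds cilia and carries vesicles, were dim. Kif3a read 200 and 187 (-0.10) by its brightest probe set but 175 and 203 (0.21) and 100.4 and 115 (0.19) by 2 others. Kif3b read 142 and 93.4 (-0.61) by its brightest probe set (suffix _s_at), 1.52-fold lower on the Satb1 array. Its others above the floor read 78.1 and 77.2 (-0.02) and 64.2 and 81.6 (0.35). Kif3c, an alternative partner of Kif3a, read 284 and 222 (-0.35) by its only readable probe set. Only Kif3c gave no contrary reading, and it had 1 readable probe set.

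The endosomal motors were mainly lower or level on the Satb1 array. Kif13a, which moves recycling endosomes, read 881 and 859 (-0.04) by its brightest probe set, and its other 4 differed by -0.79, -0.41, -0.26 and 0.17. Kif13b, a related vesicle motor, read 292 and 231 (-0.34). Kif16b, which carries early endosomes, read 1162 and 1265 (0.12), with others at -0.12 and 0.00. The 4 lower Kif13a readings thus spanned a range from almost level to 1.73-fold.

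Kif17, known as a motor of dendritic vesicles and of cilia, read lower on the Satb1 array by both probe sets readable on both arrays. It read 422 and 268 (-0.65, or 1.57-fold lower) by its brightest probe set (suffix _s_at) and 251 and 221 (-0.19) by the second. The third read 107 and 52.5, which is at least 1.74-fold lower because the Satb1 reading was under the floor. Only the first 2 were readable on both arrays, and their differences varied in size. Over all genes the SD among probe sets of 1 gene was 0.28 for intensities from 200 to 500.

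Over the 13 transport kinesins the median log2 difference was -0.04, and over the 10 above the floor on both arrays 3 were higher by any amount and 7 lower, with a median of -0.15. Dim genes as a whole read lower on the Satb1 array: the median over all genes was -0.10 for mean intensities from the floor to 200 and -0.08 from 200 to 500, against 0.03 above 2000. Of the 10 transport kinesins, 7 had mean intensities under 500. The difference between the mitotic and the transport kinesins was not tested, since there is 1 array per group. Across all 87 member probe sets above the floor on at least 1 array, 0 differed by 2-fold, against 1.18% of all probe sets with 1 gene, and 7 (8.05%) by 1.5-fold, against 7.19%.

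The other kinesins were few in number above the floor. Kif2a, a depolymerase of spindle poles and of growing neurites, read 2165 and 2158 (0.00), and its other 3 readable probe sets lay between -0.16 and 0.08. Kif24, which acts at the centriole and restrains cilium growth, read 380 and 434 (0.19). Kif21b and Kif21a, motors that restrain microtubule growth, read 563 and 515 (-0.13) and 88.2 and 78.1 (-0.18), and Kif7, a regulator of Hedgehog signalling at the cilium tip, read 132 and 113 (-0.22). The differences of these 5 genes reached at most 1.17-fold. Kif2b, Kif6, Kif9, Kif12, Kif26a, Kif26b, Kif27 and Kif28 were below the floor on both arrays, with brightest readings between 1.6 and 40.0.

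The proteins with which these genes work were then compared. In the list of outer kinetochore and checkpoint genes all 22 were measured and above the floor on at least 1 array, with a median log2 difference of 0.06, and 0 were 2-fold apart. Ndc80, a subunit of the main microtubule coupler of the kinetochore, had the largest difference at 616 and 918 (0.58, a single probe set), followed by Knl1, a scaffold for checkpoint proteins, at 405 and 525 (0.38), with a second probe set at -0.43. Sgo1, which protects centromeric cohesion, read 1499 and 1792 (0.26). The brightest genes, the checkpoint proteins Mad2l1 (7108 and 6984, -0.03) and Bub3 (7024 and 7375, 0.07), differed by less than 0.1 by their brightest probe sets. Dimmer Bub3 probe sets readable on both arrays differed by 0.41, -0.22 and 0.16.

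Genes that deposit or accompany the centromeric histone had a median of 0.04 over 7 measured genes, 6 of them higher by any amount. The share higher was 45.7% of all genes above the floor on both arrays. It was 58.8% of those with a mean intensity over 2000, whose median was 0.03. Oip5, a subunit of the loading complex for Cenpa, read 431 and 572 (0.41), and the histone chaperone gene Rbbp7 16481 and 19377 (0.23), with a second probe set at 0.08. Itgb3bp, the partner of the Cenpo group, read 391 and 354 (-0.14). The nucleolar chaperone gene Npm1 read 28206 and 28971 (0.04), with a second probe set at -0.06. None of the 7 was 2-fold or even 1.5-fold apart.

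In the list of spindle, passenger and cytokinesis genes 21 of 22 were measured, all above the floor, with a median of 0.07, 14 higher and 7 lower by any amount. Among all genes above the floor on both arrays 45.7% were higher. Among those with a mean intensity over 2000, where most of this list lies, 58.8% were higher, with a median of 0.03. The minus-end directed spindle motor Kifc1 read 1163 and 1462 (0.33) and the pole kinase Aurka 1862 and 2221 (0.25). Kifc5b, a close relative of Kifc1 whose probes may share transcripts with it, read 192 and 163 (-0.23). The proliferation genes Mki67 (10748 and 10514, -0.03) and Top2a (10888 and 11606, 0.09) differed by less than 0.1 by their brightest probe sets. A second readable Top2a probe set differed by -0.13. In the overlapping list of C-terminal kinesins, 3 of 4 were above the floor, and Kifc3 read 90.8 and 117 (0.37).

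Subunits, adaptors and regulators of transport kinesins were compared in the list of partners of conventional and heterotrimeric kinesin. Of 12 measured genes 10 were above the floor on both arrays, of which 9 were lower by any amount and 1 higher, with a median of -0.14 over the 12. Of all genes above the floor on both arrays 45.7% were higher by any amount. Of those with a mean intensity between 200 and 500, where 3 of the 10 lie, 37.0% were higher. Between 500 and 2000, where most of the others lie, 44.4% were higher, with a median of -0.03. Mapk8ip3, an adaptor that links conventional kinesin to vesicles, read 342 and 227 (-0.59), and its other 2 probe sets had a reading under the floor on 1 or both arrays. Of these, 1 went the other way at 54.3 and 72.4, at least 0.23 higher because the GFP reading was under the floor. The mitochondrial adaptor genes Rhot2 and Rhot1 differed in direction, at 277 and 214 (-0.37) and 1436 and 1572 (0.13). Plekhm2, a lysosomal adaptor gene, read 164 and 137 (-0.26), and Kifbp, which inhibits several kinesins, 2071 and 1851 (-0.16). Again 0 genes were 2-fold apart, and 1 of the list, Mapk8ip3, was lower by 1.5-fold or more. Of all genes above the floor on 1 or both arrays, 3.91% were lower by that much.

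Dynein and dynactin genes, which encode the motor of the opposite direction, had a median of 0.04 over 16 measured genes, 11 higher and 4 lower among the 15 above the floor. Of all genes above the floor on both arrays 45.7% were higher by any amount. Of those with a mean intensity over 2000, where most of this list lies, 58.8% were higher, with a median of 0.03. Dctn6 read 6007 and 7509 (0.32), with a second probe set at 0.20. Dctn1 (2305 and 1905, -0.28) and Dync1li2 (725 and 600, -0.27) were lower, each by both of its probe sets. The light chain gene Dynll1 read 16340 and 16511 (0.01).

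**Figure D5:**
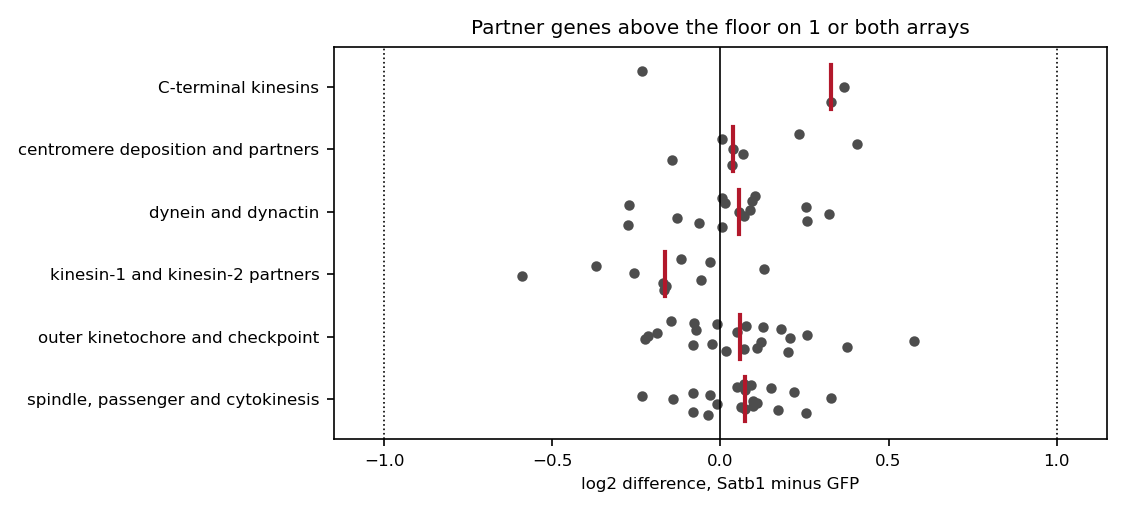
Log2 difference, Satb1 minus GFP, of partner genes above the floor on at least 1 array (brightest probe sets, 1 array per group), by list, with the red bar at the median of the plotted genes and dotted lines at a 2-fold difference. No gene of any of the 6 lists reaches 2-fold, and 9 of the 10 plotted partners of conventional and heterotrimeric kinesin lie below 0.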

How the data were processed

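RNA was measured on 1 array per group. The authors summarised each probe set as a linear intensity with MAS5, per the submitters' processing notes, and these deposited intensities were used without further scaling. MAS5 version, scaling target and genome build: not given in the sources used here, so no array coordinates are printed. The mean after trimming 2% at each end was 497 on both arrays. Differences were log2 values of the array labelled Satb1 minus the array labelled GFP, computed with Python 3.11.15 and pandas 2.3.3 after raising intensities under 61.7, the median of all values, to that floor. Of 45037 probe sets, 34945 had 1 gene symbol, 932 several and 9160 none; only the first kind was used. Of these symbols, 34741 could be brought up to date by Entrez ID in the GRCm38.p6 gene table. For each of 18193 genes, the probe set brightest by mean log2 intensity was used. With 1 array per group there is no test, SE or p-value, which limits the precision. Every member was accounted for, and partner lists named their 3 largest differences and 2 brightest genes. The members, classes and lists were chosen with earlier results of these data known. Floors, scalings, probe set rules, symbols and the threshold were varied. Fold counting was tested on simulated data.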

Additional observations from a re-analysis of the deposited data

How the results depend on the processing

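The count of 0 members at 2-fold or more was also obtained with the floor at the 75th percentile of all values, after quantile normalization, after centring on the median difference, with a gene's probe sets averaged, without probe sets that can match several transcripts, and with current symbols. It was 7 without any floor and 4 when the floor was the 25th percentile, all of them genes below the floor of 61.7 on both arrays, and 3 at a threshold of 1.5-fold. Over all genes, 125 were 2-fold apart, 3449 without any floor, 1227 and 23 when it was the 25th and 75th percentile, 75 with the mean over probe sets, and 625 at 1.5-fold. Of the 125, 95 were lower and 30 higher, and after quantile normalization 60 were lower and 54 higher. The centromere median of 0.12 lay between 0.05 (mean over probe sets) and 0.14 (centred), the mitotic median of 0.03 between 0.00 and 0.06, and the transport median of -0.04 between -0.10 (no floor) and 0.00 (quantile normalization). No paired analysis was possible because each group has 1 array, and for the same reason no array could be left out.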
